A study of Mus musculus with 4 samples.

Results

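The regions described here are the windows around 4 immediate early genes of the mouse, Fos, Jun, Junb and Egr1. They were chosen by gene name, with windows of 22 to 25 kb on mm9. Within each window, the H3K4me2 domain that held or lay nearest to the window centre was taken as the promoter region, where a domain is a run of deposited H3K4me2 peaks no more than 1 kb apart. This gave 4 central domains of the 23437 H3K4me2 domains in the genome, and 15 of 32256 H3K4me2 peaks, 9 of 5106 LSD1 peaks and 0 of 158 IgG peaks lay in the windows. No annotation of mm9 was used, so no transcription start was placed on these coordinates.

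The libraries came from chromatin of R1 mouse embryonic stem cells of 129SV origin, at passages 13 to 18, grown on gelatin with leukaemia inhibitory factor. There were 4 groups with 1 library each: DNA taken before immunoprecipitation (Input), DNA recovered with control IgG, DNA recovered with the antibody that the labels name for LSD1, and DNA recovered with one against histone H3 dimethylated at lysine 4 (H3K4me2). All groups shared the same untreated cells, so no stimulus was compared. The catalogue number that the protocol pairs with LSD1 is one known from an antibody against H3K27me3 sold by a different company, and the name LSD1 below is that of the label. The libraries held 3801082 reads (Input), 4755619 (IgG), 5833862 (LSD1) and 6416657 (H3K4me2). Values are reads per 1000000 reads of a library (RPM), or RPM per kb. With 1 library in a group there was no replicate check and no p-value, and all intervals cover counting error only. Embryonic stem cell marker genes were not analysed here, because they too would need positions on mm9.

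Immediate early genes are transcribed within minutes of a signal such as serum, growth factors or stress, without new protein synthesis. Their promoters are commonly bound by serum response factor with its ternary complex partners at CArG boxes, and by CREB or AP-1 at related sites, and they often carry marks of active chromatin before the signal arrives. Fos and the Jun proteins pair through leucine zippers to form the transcription factor AP-1. Fos cannot pair with itself, while Jun can, and Junb is a Jun family member that is in general a weaker activator. Egr1 is a zinc finger factor that binds GC-rich sites. LSD1 is a demethylase of histone H3 that acts on lysine 4 when it is mono- or dimethylated, so H3K4me2 is both its substrate and a mark of promoters and enhancers.

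The bases before the annotated start are shown for 3 of the 4 genes, because the domains were taken as their promoter regions. RefSeq promoter entries matched Fos, Jun and Junb. They are from GRCm38.p6, another build than the reads, so the bases were not placed within the peaks. Each run is the 250 bases before the start, 5′ to 3′ on the strand of the gene, with motif matches in capitals. Fos lies at chr12:85473640-85473889 on the plus strand, Jun at chr4:95052223-95052472 on the minus strand and Junb at chr8:84978749-84978998 on the minus strand.
Fos: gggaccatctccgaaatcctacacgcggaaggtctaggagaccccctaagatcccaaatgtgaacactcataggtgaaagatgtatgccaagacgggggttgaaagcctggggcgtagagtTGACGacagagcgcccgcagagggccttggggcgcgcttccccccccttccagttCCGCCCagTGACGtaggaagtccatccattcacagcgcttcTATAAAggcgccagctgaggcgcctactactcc
Jun: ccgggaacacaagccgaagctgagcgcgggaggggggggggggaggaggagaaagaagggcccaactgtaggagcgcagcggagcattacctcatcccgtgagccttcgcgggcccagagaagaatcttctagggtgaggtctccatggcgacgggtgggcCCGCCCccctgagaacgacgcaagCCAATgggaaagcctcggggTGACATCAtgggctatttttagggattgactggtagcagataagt
Junb: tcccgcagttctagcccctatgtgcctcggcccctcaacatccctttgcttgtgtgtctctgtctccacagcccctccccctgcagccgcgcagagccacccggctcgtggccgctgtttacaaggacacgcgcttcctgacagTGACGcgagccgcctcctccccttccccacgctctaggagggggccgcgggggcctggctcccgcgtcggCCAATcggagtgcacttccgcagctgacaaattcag

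Both strands of these bases were searched for the CRE (TGACGTCA), the AP-1 site (TGACTCA), the CArG box, an EGR site (GCGTGGGCG), the GC box (GGGCGG), the CCAAT box (CCAAT) and the TATA box (TATAAA). Fos held a GC box 74 to 69 bases before the start and a TATA box 33 to 28 bases before it. Jun held a GC box at 89 to 84 bases and a CCAAT box at 65 to 61 bases. Junb held a CCAAT box at 36 to 32 bases. Of all 32851 promoter entries, 32.7% held the GC box, 33.8% the CCAAT box and 12.4% the TATA box. None of the 3 promoters held the full CRE, the AP-1 site, the CArG box or the EGR site in these bases, which 1.55%, 4.46%, 1.47% and 0.536% of all entries did. Bases further from the start were not searched, so sites there would be missed.

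A pair of further strings was searched after the sequences had been seen. The AP-1-like string TGACATCA lay 45 to 38 bases before the start of Jun, and 2.93% of all entries held it. The core TGACG, which is also part of the CRE, occurred in Fos at 129 to 125 and at 66 to 62 bases and in Junb at 106 to 102 bases, and 17.8% of all entries held it. The 250 bases held 15 CpG in Fos, 15 in Jun and 20 in Junb, against a median of 6.0 over all entries. Fewer CpG were found in 72.7% of entries than in Fos or Jun, and in 82.0% than in Junb. Among 24 related genes (other Fos, Jun and Egr family members, signal-induced genes and regulators such as Srf, Elk1 and Creb1), 19 had an entry, some of them with several starts. Of these 19 genes, 17 held a GC box, 6 a CCAAT box, 4 a CArG box (Egr2, Dusp5, Zfp36 and Srf), 3 a CRE (Dusp1, Maff and Btg2), 2 an EGR site, 2 a TATA box and 0 an AP-1 site. Reads at these 24 genes were not analysed here.

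All 4 genes carried a wide H3K4me2 domain, and in each of them both ChIP libraries were above IgG. Most domains were like this: H3K4me2 was at least 2-fold over IgG in 99.4% of all H3K4me2 domains, which were called on its reads. LSD1 was at least 2-fold over IgG in 81.9% of all domains and in 94.4% of those of 2 to 5 kb. H3K4me2 exceeded IgG between 3.94-fold (Egr1) and 12.6-fold (Junb), and LSD1 exceeded IgG between 2.63-fold (Egr1) and 6.22-fold (Fos). Deposited LSD1 peaks lay in the central domains of Fos, Jun and Egr1, while that of Junb, the widest and densest in H3K4me2 of the 4, held 0. Genome-wide, 36.9% of domains of 2 to 5 kb and 57.6% of those of 5 to 10 kb held an LSD1 peak. The LSD1 to IgG ratio of Junb was close to those of Fos and Jun. This ratio did not order the genes beyond counting error, as the widened intervals of all 6 pairs held 1.

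**Figure D1:**
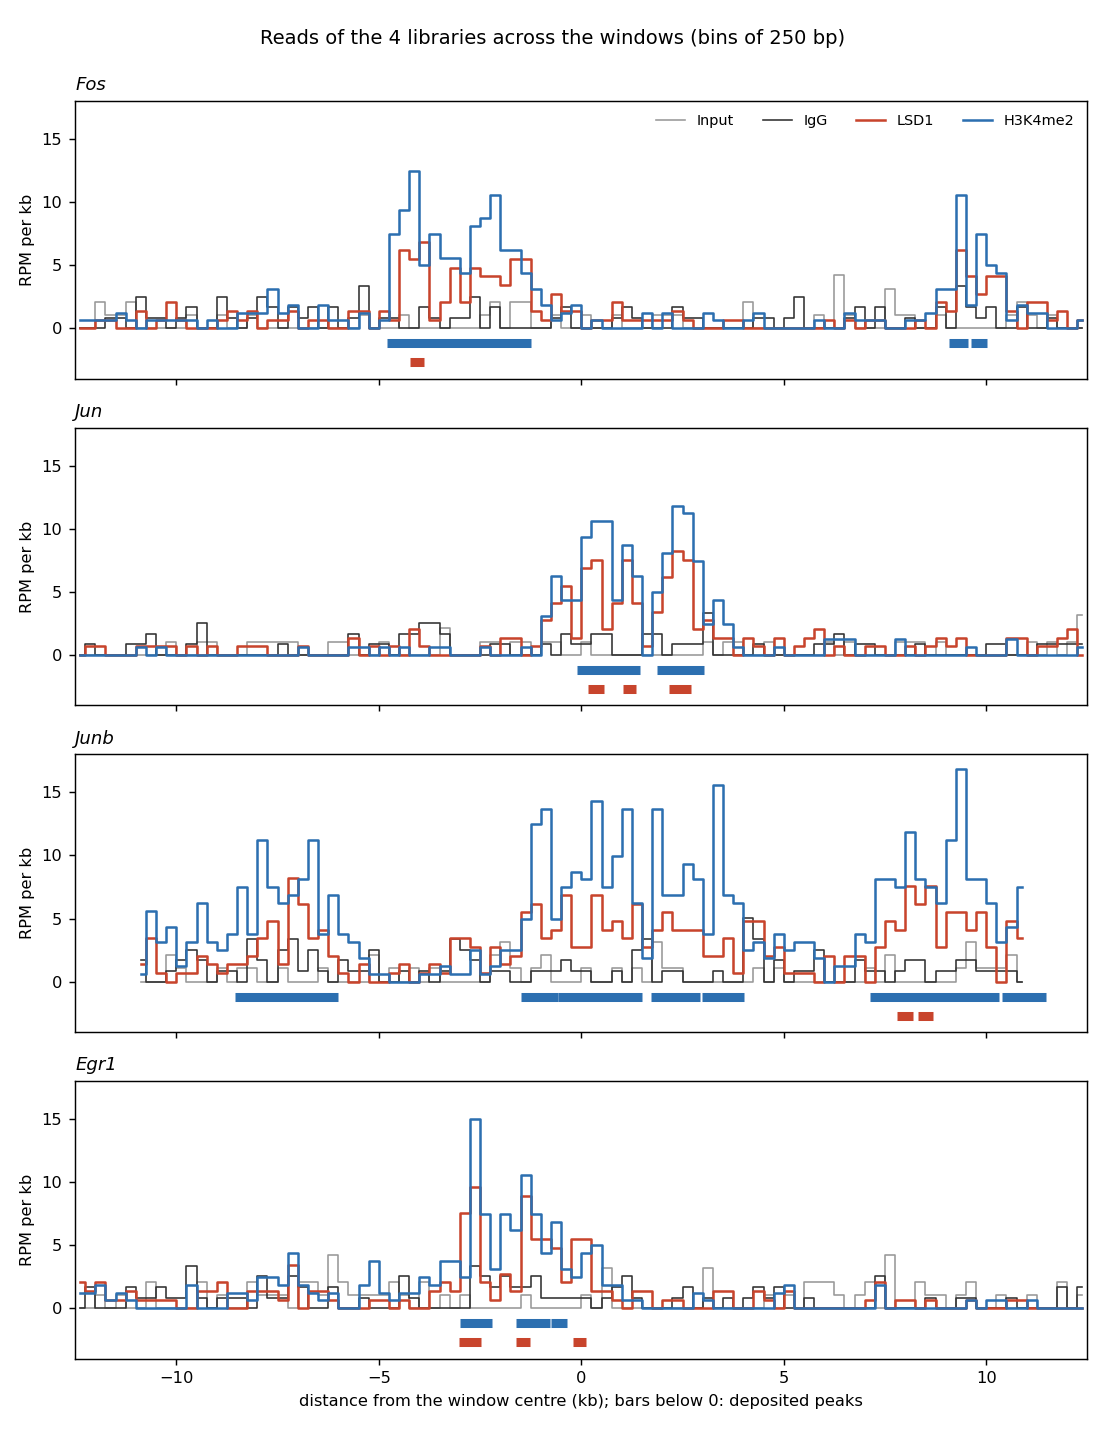
Reads of the 4 libraries in RPM per kb (y axis) in bins of 250 bp against the distance from the window centre in kb (x axis), 1 panel per gene, with the deposited H3K4me2 peaks (blue bars) and LSD1 peaks (red bars) under each profile. LSD1 and H3K4me2 stand above both controls over the central domains, and the LSD1 bars are missing from the central domain of Junb.

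Fos, the partner of the Jun proteins in AP-1, had a central domain made of a single H3K4me2 peak on chromosome 12 from 86812705 to 86816269, 3565 bp wide. It held 8 Input, 11 IgG, 84 LSD1 and 164 H3K4me2 reads. Per kb these were 0.590 RPM for Input, 0.649 for IgG, 4.04 for LSD1 and 7.17 for H3K4me2. Both controls were low and close to each other, and both ChIP libraries were several times higher. H3K4me2 exceeded IgG 11.0-fold (95% interval 6.02 to 22.6) and LSD1 exceeded it 6.22-fold (3.31 to 12.9).

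The H3K4me2 profile of the Fos domain had a pair of maxima, the higher with 20 reads in the bin centred 4125 bp before the window centre. The deposited LSD1 peak, from 86813274 to 86813619, lay at this maximum and held 14 LSD1, 24 H3K4me2, 0 IgG and 0 Input reads. If IgG is set to its floor, 3 reads in the region, LSD1 was 3.80-fold over IgG in it. The exact interval of the ratio, on 0 IgG reads, started lower, at 2.70, and had no upper end. LSD1 peaks were called on these same LSD1 reads, which raises the LSD1 to IgG ratio in them, here and below. The second maximum of H3K4me2 carried LSD1 reads as well, without an LSD1 peak in the list. The busiest 500 bp of the domain for LSD1, with 21 reads, and for H3K4me2, with 37, started 344 and 386 bp from the edge of the domain, and so overlapped almost fully.

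Jun had a central domain of 2 H3K4me2 peaks on chromosome 4 from 94717407 to 94720520, 3114 bp in all. It held 1 Input, 13 IgG, 89 LSD1 and 152 H3K4me2 reads. Per kb, Input stood at 0.0845 RPM, IgG at 0.878, LSD1 at 4.90 and H3K4me2 at 7.61. LSD1 was the highest per kb of the 4 genes here, and Input the lowest. H3K4me2 exceeded IgG 8.67-fold (4.92 to 16.6) and LSD1 exceeded it 5.58-fold (3.10 to 10.9). IgG exceeded Input 10.4-fold on the single Input read, with an interval from 1.56 to 442.

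LSD1 peaks were deposited at 3 places in the Jun domain, more than in the other central domains. The first, from 94717674 to 94718061, held 16 LSD1 and 3 IgG reads, a ratio of 4.35 (1.24 to 23.3). The second, from 94718527 to 94718849, held 13 LSD1 and 0 IgG reads, 3.53-fold over the floor of 3 reads. Its exact interval started at 2.48 and had no upper end. The third, from 94719676 to 94720214, held 22 LSD1 and 2 IgG reads, a ratio of 8.97 (2.20 to 78.7). It lay in the second H3K4me2 peak, and the other two in the first. LSD1 exceeded IgG 7.50-fold (2.99 to 24.2) over the whole first H3K4me2 peak and 8.15-fold (2.95 to 31.4) over the second, and these intervals overlapped widely.

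Junb had the widest of the 4 domains, with 4 H3K4me2 peaks on chromosome 8 from 87499513 to 87505007, 5495 bp in all. It held 11 Input, 18 IgG, 132 LSD1 and 307 H3K4me2 reads. Per kb these were 0.527 RPM for Input, 0.689 for IgG, 4.12 for LSD1 and 8.71 for H3K4me2. The H3K4me2 level per kb was the highest of the 4 and lay above that of 95.6% of the 321 domains of 5 to 10 kb. H3K4me2 exceeded IgG 12.6-fold (7.86 to 21.6) and LSD1 exceeded it 5.98-fold (3.64 to 10.4).

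The Junb domain held 0 of the LSD1 peaks, although its LSD1 to IgG ratio was close to those of Fos and Jun. Of the domains of 5 to 10 kb, 57.6% held an LSD1 peak. Among the 136 of that width without one, the LSD1 to IgG ratio of Junb lay above 97.8%, with 0.5 reads added to each count. The busiest 500 bp for LSD1 held 20 reads at Junb, 21 at Fos, 23 at Jun and 26 at Egr1. Over all 5106 LSD1 peaks the median was 19.0 reads at a median width of 461 bp, and 12 reads marked the lowest 5% of peaks. The busiest stretch is a maximum over the domain and slightly wider than the median peak, so these counts are not like for like, and neither the caller nor its threshold is given in the sources used here.

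The busiest stretch of Junb held a smaller share of the domain's LSD1 reads than those of the other genes, in a wider domain. Its busiest 500 bp, 9.10% of the domain's width, held 15.2% of the LSD1 reads, and the busiest 500 bp for H3K4me2 held 14.7%. For LSD1 the shares were 25.8% in 16.1% of the width at Jun, 25.0% in 14.0% at Fos and 36.6% in 18.9% at Egr1. Each share is a maximum over domains of unlike width and read count, so the shares do not rank the genes by concentration. Of the 4 peaks of the Junb domain, the fourth, from 87503979 to 87505007, stood lower for LSD1. It held 13 LSD1 against 52 H3K4me2 reads, an LSD1 to H3K4me2 ratio of 0.275 (0.137 to 0.512), while the first 3 lay between 0.489 and 0.520. These intervals overlapped.

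Egr1, the zinc finger gene of the group, had a central domain of 3 H3K4me2 peaks on chromosome 18 from 35019512 to 35022151, 2640 bp in all. It held 2 Input, 22 IgG, 71 LSD1 and 117 H3K4me2 reads. Per kb, Input stood at 0.199 RPM, IgG at 1.75, LSD1 at 4.61 and H3K4me2 at 6.91. IgG was the highest of the 4 genes, above that of 97.4% of the 3652 domains of 2 to 5 kb, while LSD1 per kb was between those of Junb and Jun. H3K4me2 exceeded IgG 3.94-fold (2.48 to 6.53) and LSD1 exceeded it 2.63-fold (1.61 to 4.46), the lowest ratios of the 4. IgG exceeded Input 8.79-fold (2.16 to 77.1), on 2 Input reads.

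The Egr1 window held 3 LSD1 peaks. That from 35019493 to 35020033 held 27 LSD1 and 5 IgG reads, a ratio of 4.40 (1.67 to 14.6). The next, from 35020895 to 35021236, held 15 LSD1 and 3 IgG reads, a ratio of 4.08 (1.15 to 22.0). The last, from 35022306 to 35022608, lay beyond the end of the H3K4me2 domain and held 12 LSD1, 4 H3K4me2, 1 IgG and 1 Input reads. There LSD1 outnumbered H3K4me2, with an LSD1 to H3K4me2 ratio of 3.30 (1.00 to 14.0), which no other LSD1 peak of the 4 windows showed. It was also the only one outside every H3K4me2 peak and was called on LSD1 reads, so a high ratio is partly built in. The counts are small, and the LSD1 to IgG ratio of 9.78 had an interval from 1.45 to 418.

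Against the genome, 3 of the 4 central domains held an LSD1 peak, where 17.7% of all H3K4me2 domains and 36.9% of those of 2 to 5 kb did. The domains of Jun and Egr1 held more than 1, which was so for 1.95% of all domains and 6.82% of those of 2 to 5 kb. These are counts over 4 loci. None of the 4 held an IgG peak, as was so for all but 0.0768% of domains. The LSD1 to IgG ratio was at least 2 in all 4, but it was so in 81.9% of all domains, in 94.4% of those of 2 to 5 kb and in 97.8% of those of 5 to 10 kb, so this count did not set the genes apart. The same held for H3K4me2, with 99.4% of all domains at least 2-fold over IgG; those domains were called on the H3K4me2 reads.

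Ranked by the ratio itself, with 0.5 reads added to each count, the LSD1 to IgG ratio of Fos lay above 94.2% of domains of 2 to 5 kb, that of Jun above 90.7% and that of Egr1 above 21.7%. That of Junb lay above 98.8% of domains of 5 to 10 kb. IgG per kb ran the other way: Fos lay above 10.7% and Egr1 above 97.4% of domains of their width, and Junb above 4.67%. LSD1 per kb itself was higher than in most domains at every gene, above 73.0% at Fos, 93.6% at Jun, 82.6% at Junb and 88.5% at Egr1. Among the 1346 domains of 2 to 5 kb with an LSD1 peak, LSD1 per kb at Fos lay above 44.6%, with 4.04 RPM against a median of 4.15. The part of the IgG level in these ranks was not tested, as the IgG counts were 11 to 22 reads a domain.

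**Figure D2:**
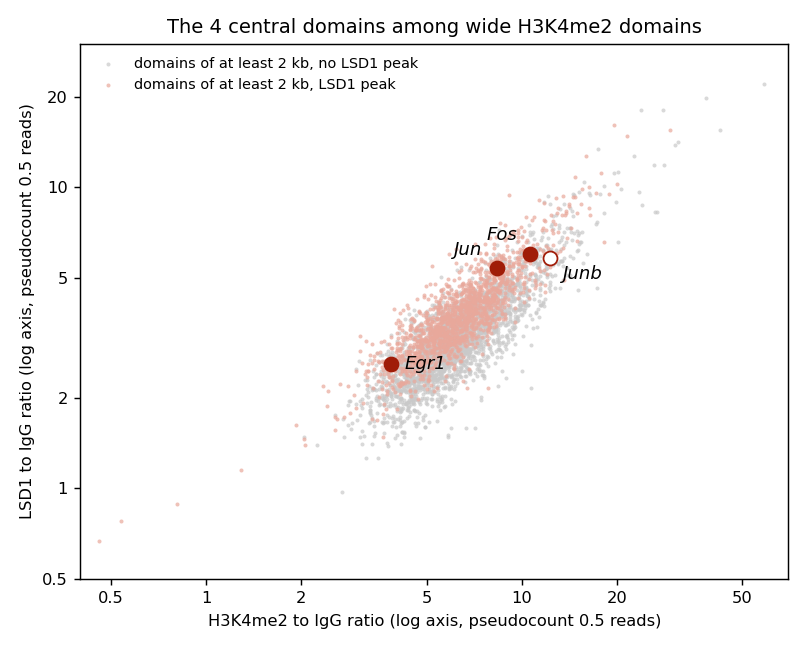
LSD1 to IgG ratio (y axis) against H3K4me2 to IgG ratio (x axis), both on log axes with 0.5 reads added to each count, for all H3K4me2 domains of at least 2 kb with an LSD1 peak (pale red) and without (grey), and for the 4 central domains (large points, open for Junb, which has no LSD1 peak). Both axes share the IgG count, which alone spreads points along the diagonal; Fos, Jun and Junb lie high on both axes and Egr1 low on both.

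The 4 genes were compared with each other in 6 pairs, for the 3 ratios and for the reads per kb of the 4 libraries, 42 comparisons in all. Intervals at 99.17%, which allow for the 6 pairs of a measure, excluded 1 in 2 of them. The H3K4me2 to IgG ratio was higher at Junb than at Egr1, 3.20-fold (1.25 to 8.35). IgG per kb was lower at Junb than at Egr1, at 0.393 of its level (0.158 to 0.954). Allowing for all 42 comparisons, only the first still excluded 1 (1.02 to 10.4). Its direction turned with Input as the control, which gave an H3K4me2 ratio of 16.5 (9.11 to 33.5) at Junb and of 34.7 (9.38 to 289.5), on 2 Input reads, at Egr1. The LSD1 to IgG ratio of Fos was 2.36-fold that of Egr1, with an interval from 0.782 to 7.83, so the depth left a higher and a lower value possible.

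Relative to H3K4me2, LSD1 did not differ between the 4 genes beyond counting error. The LSD1 to H3K4me2 ratio was 0.563 (0.428 to 0.737) at Fos, 0.644 (0.490 to 0.842) at Jun, 0.473 (0.383 to 0.582) at Junb and 0.667 (0.490 to 0.904) at Egr1. The lowest value was that of Junb, without an LSD1 peak, and the highest that of Egr1. The widest contrast, Junb against Egr1, was 0.709 with an interval from 0.431 to 1.17. The median was 0.539 over all domains of 2 to 5 kb and 0.599 over those with an LSD1 peak. For domains of 5 to 10 kb it was 0.514, and 0.473 without an LSD1 peak. LSD1 peaks were called on the same LSD1 reads, which raises the ratio where one was called.

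**Figure D3:**
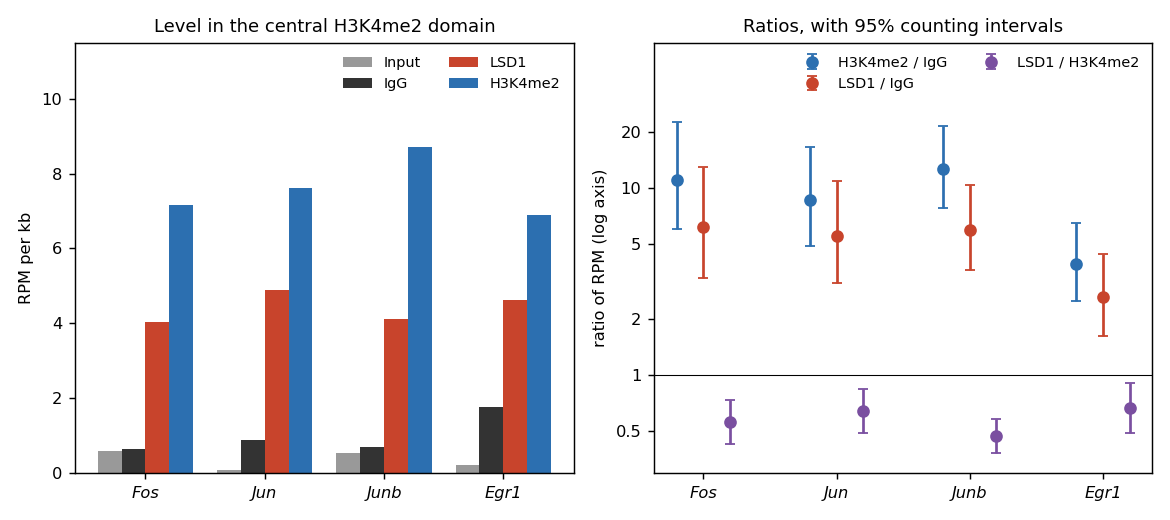
Left, level of each library in RPM per kb in the central H3K4me2 domain of each gene, 1 library per bar. Right, ratios of RPM on a log axis with exact 95% counting intervals; LSD1 to H3K4me2 lies between 0.473 and 0.667 at all 4 genes, while both ratios to IgG are lowest at Egr1.

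Outside the deposited peaks of the windows LSD1 did not exceed IgG beyond counting error. The LSD1 to IgG ratio there was 1.05 (0.753 to 1.48) at Fos, 1.33 (0.936 to 1.90) at Jun, 1.24 (0.881 to 1.77) at Junb and 1.04 (0.757 to 1.44) at Egr1. All 4 intervals held 1. These stretches leave out every deposited peak, LSD1 peaks included, which lowers LSD1 there in part by construction. The H3K4me2 to IgG ratio there was above 1 at Junb, at 1.82 (1.33 to 2.52), and at Egr1, at 1.37 (1.02 to 1.85). Against Input, LSD1 outside the peaks was 3.15-fold (1.88 to 5.56) at Junb, where IgG itself was 2.53-fold over Input (1.47 to 4.57). LSD1 over Input there was 1.56 (1.04 to 2.39) at Fos, 1.64 (1.10 to 2.50) at Jun and 0.895 (0.646 to 1.24) at Egr1. IgG over Input there was 1.48 at Fos, 1.23 at Jun and 0.859 at Egr1, and each of these intervals held 1. Within the LSD1 library, the domain exceeded these outside stretches per kb 5.77-fold (4.21 to 7.91) at Fos, 7.24-fold (5.33 to 9.84) at Jun, 2.88-fold (2.18 to 3.82) at Junb and 6.62-fold (4.79 to 9.13) at Egr1. The same contrast in IgG was 0.977 (0.465 to 1.87), 1.72 (0.863 to 3.20), 0.60 (0.332 to 1.03) and 2.62 (1.55 to 4.28). IgG thus rose in the domain at Egr1 beyond counting error, and at Fos, Jun and Junb its interval held 1. For LSD1 the contrast was partly built in, since the domains of Fos, Jun and Egr1 kept LSD1 peaks called on these reads. The outside stretches of the Junb window were higher than those of the others in both ChIP libraries and in IgG, with 1.43 RPM per kb of LSD1 against 0.677 to 0.70, and 1.15 of IgG against 0.509 to 0.668.

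Between H3K4me2 peaks of the same domain, Jun, Junb and Egr1 each had 1 gap of at least 100 bp. Active promoters often have a stretch with few nucleosomes at the start, and whether these gaps lie there was not tested. The gaps lay from 94718956 to 94719364 at Jun (409 bp), from 87502507 to 87502721 at Junb (215 bp) and from 35020302 to 35020878 at Egr1 (577 bp). H3K4me2 must be low in them, since they are defined by the lack of a peak. The comparison of gaps with peaks was not planned beforehand.

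LSD1 held 3 reads in the gap of Jun, 4 in that of Junb and 5 in that of Egr1. Per kb, LSD1 in the gaps stood at 0.231 of its level in the peaks of the same domain at Jun (0.0467 to 0.697), at 0.270 at Egr1 (0.0847 to 0.662) and at 0.762 at Junb (0.204 to 2.0). For the 3 genes summed it was 0.357 (0.182 to 0.634), against 0.622 (0.615 to 0.629) over the 5120 H3K4me2 domains with such a gap. The upper end of the genes' interval lay just above that value. With unmoved read starts the summed value was 0.298 (0.141 to 0.555), and the genome-wide value of 0.620 then lay above the interval. LSD1 thus fell with the mark at Jun and Egr1, while at Junb the counts could not show whether it did.

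IgG did not fall in the gaps. It held 4 reads in the gap of Jun, 4 in that of Junb and 5 in that of Egr1. In each gap this was as many as or more than LSD1, in a smaller library. Summed over the 3 genes, IgG per kb was 2.77-fold higher in the gaps than in the peaks (1.36 to 5.29), against 0.980 (0.961 to 0.999) genome-wide. By gene the ratio was 2.94 at Jun (0.661 to 10.5), 6.97 at Junb (1.67 to 22.2) and 1.10 at Egr1 (0.314 to 3.13). Only that of Junb excluded 1, on 4 reads in the gap, and with unmoved starts the interval of each gene held 1. IgG was higher in the gaps in 47% of all domains with a gap. Without moving the read starts by 100 bp the summed value was 1.89 with an interval from 0.847 to 3.80, and the gap of Junb then held 1 IgG read in place of 4. Input held 0 reads in the 3 gaps, and the interval of its summed gap to peak ratio reached from 0 to 2.50.

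**Figure D4:**
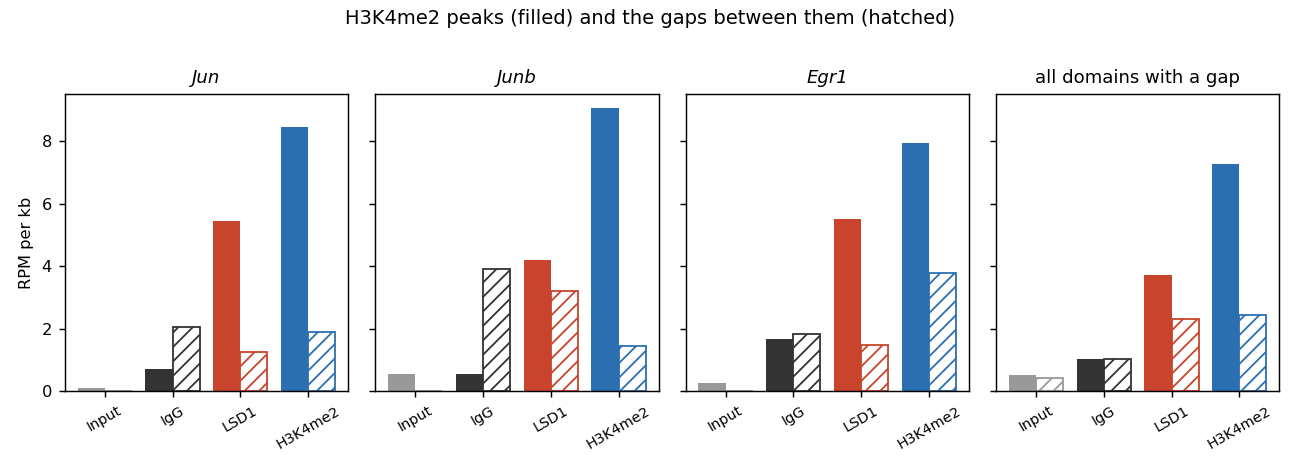
RPM per kb (y axis) of each library in the H3K4me2 peaks of a domain (filled bars) and in the gaps of at least 100 bp between them (hatched bars), for Jun, Junb, Egr1 and all 5120 domains with such a gap. In the 3 genes LSD1 and H3K4me2 are lower in the gaps (for LSD1 at Junb within counting error) and IgG is not; each gap holds 2 to 14 reads of IgG, LSD1 or H3K4me2.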

How the data were processed

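ChIP-seq reads of Input, IgG, LSD1 and H3K4me2 libraries were analysed, 1 library each. Per the labels' protocols, chromatin was fixed with 1% formaldehyde and sonicated, fragments of about 200 bp were taken from a gel, and reads had 36 bases. The build is mm9, per the submitters' processing notes; neither the aligner and its filters nor the peak caller, its threshold and its control is given in the sources used here. The authors deposited 1 line per aligned read, from which read counts were made here, and peak lists with positions only. Because no start and strand repeats within a library, copies count once, which caps dense regions.

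Read starts were moved 100 bp along their strand and counted in regions. Ratios of RPM carry exact binomial 95% intervals conditional on both counts, and pairs of genes were compared by conditional odds ratios or rate ratios with widened exact intervals. Peaks overlapped if they shared at least 1 bp. Ratios and their intervals were checked on simulated counts without spread beyond counting error, so the check does not cover variation between libraries. All 4 genes were named, with every peak in their windows; the members and lists were chosen with earlier results of these data known. The lists of marker and related genes were not run on reads, since no annotation of mm9 was at hand. Alternatives were unmoved starts, scaling to reads outside peaks, whole windows, the nearest single peak, Input as the control, and other overlaps, joins, pseudocounts and read minimums. Computations used numpy 2.4.6 and scipy 1.17.1 for statistics, pandas 2.3.3 for tables and matplotlib 3.10.9 for plots, under Python 3.11.15.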

Additional observations from a re-analysis of the deposited data

How the results depend on the processing

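Over the 12 ratios of the 4 genes, 56 alternative values were computed: 43 stayed within the 95% interval of the reported value, 13 moved beyond it and 0 changed direction. Unmoved starts, scaling to reads outside peaks and the nearest single H3K4me2 peak moved none of them beyond it. Scaling changed a given ratio by the same factor at every gene. At Fos the nearest single peak is the whole domain, so its values could not move. At Egr1 the nearest single peak gave an LSD1 to IgG ratio of 2.85, and its interval, 0.543 to 28.1, held 1. Whole windows add unmarked sequence, and at Fos and Junb further H3K4me2 domains as well. They gave LSD1 to IgG ratios of 1.89 (Fos), 2.25 (Jun), 2.86 (Junb) and 1.56 (Egr1). Their H3K4me2 to IgG ratios were 2.75, 2.58, 5.38 and 2.01 in the same order, and the LSD1 to H3K4me2 ratio was 0.874 at Jun. With Input as the control, which held 1 read at Jun and 2 at Egr1, LSD1 was 58.0-fold over it at Jun and 23.1-fold at Egr1, and H3K4me2 90.0-fold and 34.7-fold, so Egr1 was no longer the lowest. At Fos and Junb the Input ratios, 6.84 and 7.82 for LSD1, stayed within the intervals. The 9 LSD1 peaks stayed 9 with an overlap of at least 50%. The share of all domains with an LSD1 peak was 16.4% with peaks joined within 500 bp and 18.8% within 2 kb, and the share at least 2-fold over IgG was 79.4% with a pseudocount of 1 read and 79.7% among domains with at least 5 IgG reads. The gap ratios were not planned beforehand, neither in the main setting nor with unmoved starts, and were chosen after seeing the data. With unmoved starts they were 0.298 for LSD1 and 0.395 for H3K4me2. No paired analysis was possible because there was 1 library in each group. The width of the intervals of all ratios to IgG was set mainly by the 11 to 22 IgG reads a domain.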

Other observations

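The windows held 3 further H3K4me2 domains. That of the Fos window, on chromosome 12 from 86826588 to 86827525, lay on the far side of the window centre from the central domain and held 21 LSD1, 36 H3K4me2, 7 IgG and 0 Input reads in 938 bp, without an LSD1 peak. Its LSD1 to IgG ratio was 2.45 (1.00 to 6.81) and its H3K4me2 to IgG ratio 3.81 (1.67 to 10.1). By the gene order of GRCm38.p6, the protein-coding neighbours of the gene Junb are Prdx2, a peroxidase gene, and Hook2. Neither was placed on mm9, so whether they reach into the Junb window was not tested. The other 2 domains of this window were not assigned to any gene. The domain from 87492459 to 87494980 held 55 LSD1 and 19 IgG reads, a ratio of 2.36 (1.38 to 4.21), without an LSD1 peak. That from 87508130 to 87515742, which runs past the end of the window, held 168 LSD1 and 40 IgG reads, a ratio of 3.42 (2.41 to 4.96), and the 2 LSD1 peaks of this window. These LSD1 peaks were 380 and 378 bp wide and held 14 LSD1 reads each.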
